A study of Drosophila melanogaster with 96 samples.

Results

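The daily course of each mRNA in the heads of female flies under Achl RNAi was set against its course in male flies under the same RNAi. The comparison used the 48 RNAi libraries of the 96 in the series: the 24 libraries labelled Female_Achl_RNAi and the 24 labelled Male_Achl_RNAi, with the 24 Female_Control and 24 Male_Control libraries as the background. Both sexes shared the knockdown of Achl (Achilles), the age of 3 to 5 days as adults, the earlier cycle of 12 h light and 12 h dark and constant darkness that began 24 h before collection. The labels name neither the driver of the RNAi nor what the controls carry. Each library pooled the heads of several flies and stands for 1 time of circadian time (CT), in steps of 2 h between CT24 and CT70, so 2 days were covered with no replicate at a time point. P-values therefore measure only the scatter of libraries around fitted courses, and sequencing depth is unknown because the authors deposited TPM, a share of each library's transcripts. In whole heads, fewer cells of a type and less RNA per cell cannot be told apart.

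The fly clock is a feedback loop in which the CLK and CYC proteins drive transcription of per and tim, whose proteins enter the nucleus and block CLK and CYC. A second loop, with the repressor VRI and the activator PDP1, sets the transcription of Clk in opposite phase. Many head transcripts follow these loops, among them genes of the fat body, the eye and detoxification, and several of them differ in level between the sexes. Achl is itself an mRNA that cycles in heads.

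For every gene a level and a 24 h cosine and sine were fitted to log2(TPM + 1) in each group. A gene was called rhythmic where the F test of its cosine and sine had an adjusted p under 0.05 (limma, Benjamini-Hochberg over the 10568 tested genes), and its rhythm was called different between the sexes where the F test of the female minus male coefficients did. The size of a rhythm is given as the peak-to-trough ratio of the fitted curve, and its phase as the fitted peak in circadian time, counted from CT0 at subjective dawn. Mean levels do not enter this test.

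The target itself had a lower median under RNAi in both sexes. Achl had 10.11 to 21.01 TPM in female RNAi libraries (median 15.88), against 29.4 to 104.94 TPM in female controls (median 69.485), and these ranges did not overlap. It had 7.66 to 33.8 TPM in male RNAi libraries (median 22.245), against 16.56 to 143.53 TPM in male controls (median 74.84), and the ranges overlapped at the troughs of the male control rhythm. Some libraries stood apart. The mitochondrial ribosomal RNA mt:lrRNA was below 50000 TPM in 15 of 24 female RNAi libraries, 12 of them from the second day, and in 0 of 24 male RNAi libraries. Female controls had 14 such libraries, 12 of them also from the second day, and male controls 0. The median correlation of a library with its own group was lowest at CT32 in female RNAi (0.944) and at CT34 in male RNAi (0.967). The heads carried their defining markers: all 28 photoreceptor genes were present, with sums of 29851 to 54805 TPM in female and 34243 to 46405 TPM in male RNAi libraries. All 24 neuron genes were present too, with sums of 1667 to 3681 TPM in female and 4196 to 5756 TPM in male RNAi libraries, which did not overlap, while the 18 ovary genes summed to at most 18.2 TPM in females and 21.7 TPM in males, with 2 of them at 0. The part of these differences in the results was not tested beyond the values given below.

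Of 10568 genes, 148 were called rhythmic in female RNAi heads (1.40%) and 108 in male RNAi heads (1.02%). The controls had 169 in females (1.60%) and 133 in males (1.26%). Of the RNAi genes 50 were called in both sexes, which is 33.8% of the female list and 46.3% of the male list. The remaining 98 were called in females and not in males, and 58 in males and not in females, but these are separate calls and not tests of a difference. In the test of the difference itself 0 of the 98 and 0 of the 58 passed, with 51 and 23 at an unadjusted p under 0.05. Of the 98, 41 had an unadjusted p under 0.05 for rhythm in males, and of the 58, 31 did in females. The median peak-to-trough ratio of the 98 was 1.44 in females and 1.2 in males, and that of the 58 was 1.22 in females and 1.48 in males, a contrast that the way the lists were made forces. Over the 50 shared genes the medians were 1.70 in females and 1.73 in males, beside 1.13 in females and 1.17 in males over all tested genes.

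**Figure D1:**
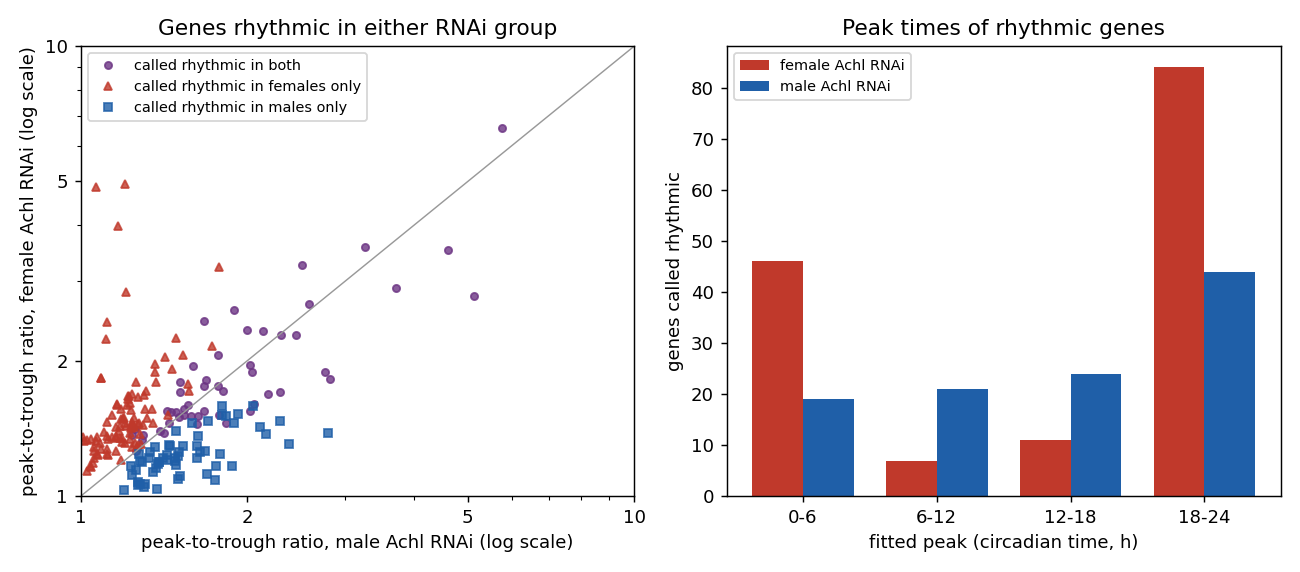
Left, fitted peak-to-trough ratio in female (vertical) and male (horizontal) Achl RNAi heads on log scales for the 206 genes called rhythmic in either group, with the line of equal ratios. Right, number of rhythmic genes by fitted peak in windows of 6 h: 84 of 148 female and 44 of 108 male genes peaked between CT18 and CT24.

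Peaks lay mostly around subjective dawn in females. Of the 148 female genes 84 peaked from CT18 to CT24, 46 from CT0 to CT6, 7 from CT6 to CT12 and 11 from CT12 to CT18. Of the 108 male genes 44 peaked from CT18 to CT24, 19 from CT0 to CT6, 21 from CT6 to CT12 and 24 from CT12 to CT18. These counts follow from the separate calls and were not tested against each other.

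Over both days a single gene passed the test of a different rhythm between female and male RNAi heads, which is 0.00946% of those tested. It was gol (goliath, FBgn0004919, chromosome 2R, 25072627 to 25084347, minus strand, BDGP6, the Ensembl name of dm6), which encodes a RING-finger ubiquitin ligase of endosomes. An unadjusted p under 0.05 was reached by 510 genes, or 4.83%.

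The gol mRNA ranged from 65.13 TPM at CT28 to 179.93 TPM at CT36 in female RNAi heads, with a median of 96.37 TPM, and from 73.65 TPM at CT44 to 243.68 TPM at CT34 in male RNAi heads, with a median of 112.56 TPM. The ranges overlapped, with troughs of similar height and male peaks above every female value. In the afternoon of the first subjective day, gol had 92.09, 107.91, 130.11 and 179.93 TPM at CT30, CT32, CT34 and CT36 in females, against 171.79, 195.27, 243.68 and 231.77 TPM in males. On the second day it had 92.63, 132.79, 115.18 and 130.4 TPM at CT54, CT56, CT58 and CT60 in females, against 171.54, 213.36, 218.27 and 165.33 TPM in males. At each of these 8 times the female value was the lower one. The gene was picked by this contrast and the times lie around its fitted male peak, so this is a description only. During the subjective night females had the higher value at CT42, CT44 and CT46 and again at CT64 and CT66, with 108.75 TPM in females and 73.65 TPM in males at CT44, and 114.36 TPM in females and 91.86 TPM in males at CT64. At CT68 and CT70 females were lower again, with 70.3 and 73.66 TPM in females against 84.68 and 93.38 TPM in males.

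The fitted gol rhythm had a ratio of 1.82 and a peak at CT12.3 in females, and a ratio of 2.81 and a peak at CT9.61 in males. Females peaked 2.72 h later (SE 0.60, 95% interval 1.53 to 3.91) and had a log2 peak-to-trough ratio 0.63 smaller (difference -0.63, SE 0.17, 95% interval -0.96 to -0.30). The adjusted p by limma was 0.00189 for the whole rhythm, 8.9e-04 for the phase and 0.0129 for the ratio. Each day gave the same order when fitted alone: on the first day a ratio of 1.83 with a peak at 13.2 h in females, against 3.15 at 10.3 h in males, and on the second 1.87 at 11.4 h in females, against 2.62 at 8.79 h in males. The whole-rhythm test called gol on each day alone (adjusted p 0.0126 and 0.00192), and after leaving out each of the 48 RNAi libraries in turn. It did not call it with a period of 25 h (adjusted p 0.181).

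In controls gol peaked at CT8.61 in females and CT8.53 in males, a difference of 0.08 h, while its ratio was 2.11 in females and 2.90 in males. The sex difference of the gol rhythm under RNAi did not pass against that of controls (unadjusted p 0.0523, adjusted p by limma 1.0), so no difference between the RNAi and control sex differences was shown. Over all genes 0 passed that test by limma (383 at an unadjusted p under 0.05), and the control sex difference itself also called 1 gene (0.00946%), rost, which was not called under RNAi (adjusted p 0.65).

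**Figure D2:**
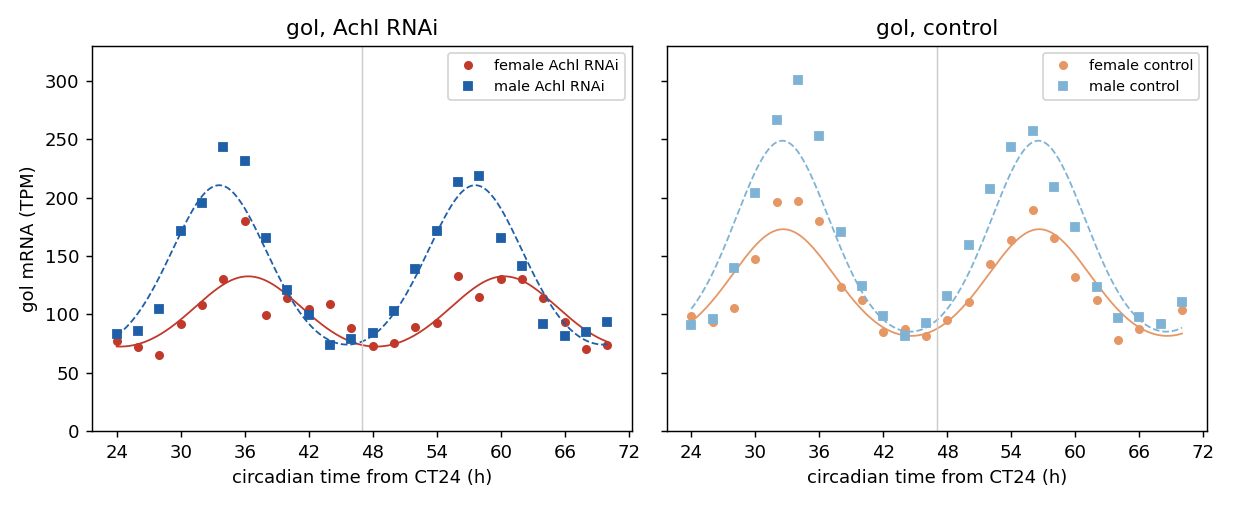
TPM of gol by circadian time, with 1 point per library and the fitted 24 h curve of each group; the grey line parts the days. Female RNAi values stay at or below 179.93 TPM, and male RNAi values reach 243.68 TPM and turn earlier, while the control curves of both sexes peak together.

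Just outside the threshold stood 6 genes that shared an adjusted p of 0.0986. CG7402 (chromosome 3L, 17887705 to 17891404) had a ratio of 1.43 with a peak at CT1.31 in females, against 1.25 with a peak at CT8.89 in males. It passed in 6 of 15 alternative settings, more than any gene other than gol, which passed in 14. Gp210, which encodes a membrane protein of the nuclear pore, had a ratio of 1.24 and a peak at CT13.5 in females, against 1.79 and CT10.5 in males. Cln3, the fly counterpart of a lysosomal gene of human neuronal ceroid lipofuscinosis, had ratios of 1.29 in females and 1.45 in males, with peaks at CT18.2 in females and CT12.0 in males. The others were CG34172, CG5613 and the noncoding CR44741. Over the 48 fits that left out 1 RNAi library, CG7402 passed in 4 and gol in 48.

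None of the next genes in the order of p passed, and a few are given as examples. The cytochrome oxidase subunit gene levy had a ratio of 1.55 with a peak at CT20.9 in females and 1.23 at CT14.6 in males (adjusted p 0.169). ATPsynE, an ATP synthase subunit, had 1.35 at CT20.8 in females and 1.16 at CT12.1 in males (adjusted p 0.21). Xport-A, a chaperone needed for rhodopsin and TRP in photoreceptors, had 1.06 at CT17.9 in females and 1.31 at CT7.85 in males (adjusted p 0.241). CG4757, a carboxylesterase-like gene, had ratios of 4.86 in females and 1.07 in males (adjusted p 0.214). Its level ranged from 177.17 to 6708.24 TPM in female RNAi (median 1532.77) and from 2430.19 to 8763.25 TPM in male RNAi (median 5213.18), against at most 68.87 TPM in female and 180.1 TPM in male controls. When each day was fitted alone, the female ratio was 1.55 on the first day and 15.5 on the second, a contrast for which no test is given.

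The 510 genes at an unadjusted p under 0.05 make up 4.83% of those tested, no more than that threshold alone lets through. Of them 424 were called rhythmic in neither sex, and their median ratios were 1.25 in females and 1.22 in males. Fitted peaks lay more than 6 h apart in 409, which selection of weak rhythms by the difference of their coefficients favours, so nothing is read from it.

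Peak times could be compared with some precision for the 50 genes rhythmic in both RNAi groups. The median difference was 0.52 h later in females, with quartiles of -0.50 and 1.38 h and extremes of -3.08 and 3.63 h. Peaks were later in females for 36 genes and earlier for 14, and 23 genes lay within 1 h of each other. This lean was smaller in several other settings. Of the same 50 genes, 28 peaked later in females with library median centring, 28 without mitochondrially encoded genes and 28 with mt:lrRNA as a covariate. On the first day alone 26 did, and on the second 29. The median difference ran from 0.17 to 0.97 h over 14 alternatives. The median standard error of a difference was 1.0 h, so the 95% interval of a typical gene spanned 1.99 h to either side and shifts smaller than that could not be resolved gene by gene. Of the 50 genes 4 passed the test of phase (8.00%, limma, adjusted over the 50), with 13 at an unadjusted p under 0.05. Of the 50 genes 1 passed that of ratio (2.00%), and it was gol. The ratio was higher in females for 26 and lower for 24, with a median log2 difference of 0.00 and 5 at an unadjusted p under 0.05.

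In the fit over both days a similar lean was present without the knockdown. In controls 76 genes were rhythmic in both sexes, with a median difference of 0.52 h later in females, 52 later and 24 earlier, and 4 called (5.26%). For the 33 genes rhythmic in all 4 groups the median difference was 0.51 h under RNAi and 0.64 h in controls, and 20 of the 33 were later in females in both. Across these 33 genes the RNAi and control differences correlated at Pearson's r 0.41 and Spearman's rho 0.28, a description only, since genes of the same libraries are not independent.

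**Figure D3:**
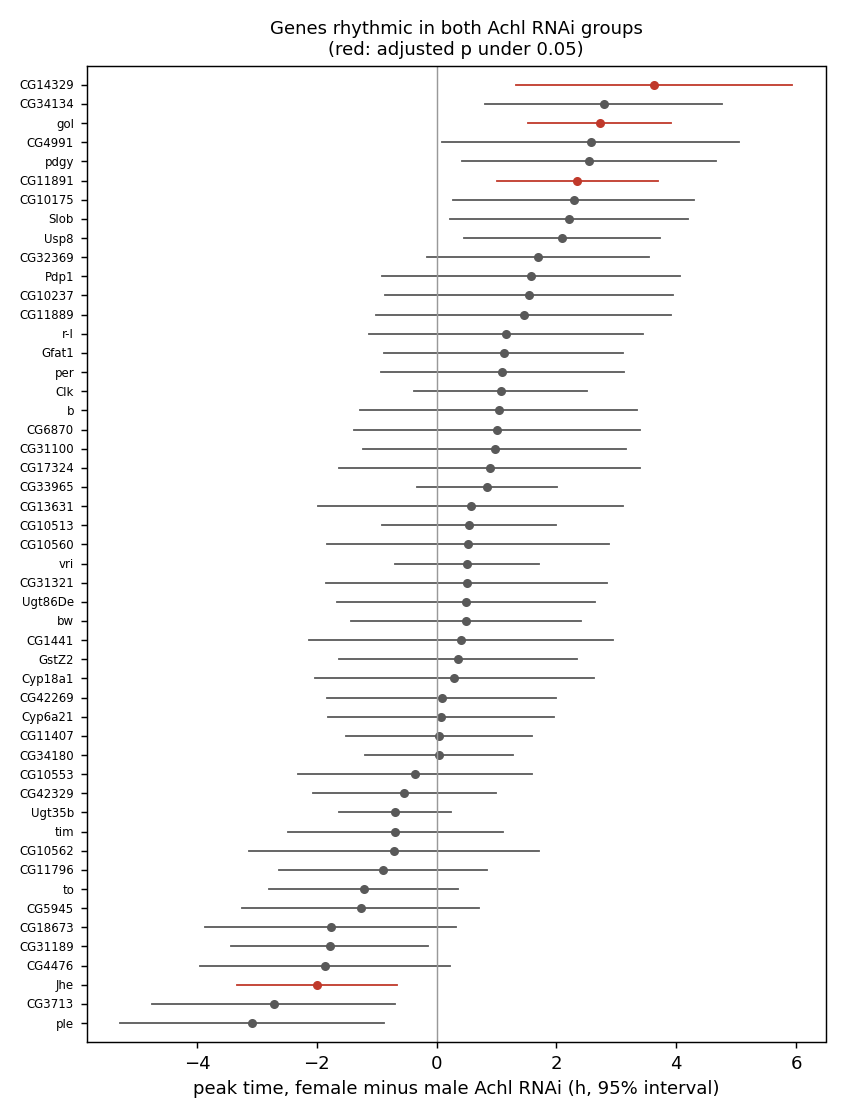
Fitted peak time in female minus male Achl RNAi heads (h, horizontal) with 95% intervals for the 50 genes rhythmic in both, ordered by the difference. Red marks the 4 genes with an adjusted p under 0.05: CG14329, gol and CG11891 peaked later in females, and Jhe earlier.

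Of the 4 genes with a called phase difference, 3 peaked later in females. Besides gol these were CG11891 and CG14329. CG11891 ranged from 27.52 to 134.35 TPM in females (median 56.54) and from 38.64 to 127.1 TPM in males (median 70.79), overlapping widely. Its peak was at CT23.5 in females and CT21.1 in males, 2.35 h later in females (SE 0.67, adjusted p 0.0187). In the subjective night males had already climbed. At CT40 there were 37.31 TPM in females and 72.93 TPM in males, and at CT64 52.31 TPM in females and 94.04 TPM in males. The difference was 1.89 h on the first day and 3.24 h on the second. CG11891 shares exons on the same strand with CG11889 at chromosome 3R, 25270209 to 25273267, so how reads were divided between them is uncertain; CG11889 itself differed by 1.45 h (SE 1.24).

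CG14329 ranged from 7.39 to 30.45 TPM in females (median 19.525) and from 7.75 to 32.95 TPM in males (median 21.735), so the ranges overlapped almost fully. It peaked at CT3.35 in females and CT23.7 in males, 3.63 h later in females (SE 1.16, adjusted p 0.0396). In controls it was 3.10 h later in females as well (adjusted p 0.00778), the only gene called for phase under both conditions.

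Jhe went the other way. It encodes juvenile hormone esterase, which breaks down juvenile hormone. Its level ranged from 1.53 to 9.5 TPM in females (median 3.685) and from 1.46 to 13.59 TPM in males (median 6.6), again overlapping. The peak was at CT1.57 in females and CT3.56 in males, -2.0 h as female minus male (SE 0.67, adjusted p 0.0467). The first day gave peaks at 1.51 h in females and 3.66 h in males, and the second at 1.64 h in females and 3.48 h in males. In controls the difference was -0.77 h. The Jhe call was lost without any one of 19 of the 48 libraries, and that of CG14329 without any one of 11. The call for CG11891 held in all 48.

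Genes close behind were ple and CG34134, both at an adjusted p of 0.0544. Tyrosine hydroxylase, encoded by ple, makes the precursor of dopamine, and its mRNA peaked at CT1.06 in females and CT4.14 in males. CG34134 peaked at CT21.8 in females and CT19.0 in males. Usp8, a deubiquitinating enzyme of endosomes, had a ratio of 1.89 and a peak at CT11.9 in females, against 2.76 and CT9.80 in males (2.09 h, SE 0.82, adjusted p 0.0797). Slob, whose protein binds the Slowpoke potassium channel, peaked at CT12.5 in females and CT10.3 in males (2.20 h, SE 0.999, adjusted p 0.136). In controls the female minus male differences of Usp8 and Slob were 0.52 and -0.41 h.

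Several jointly rhythmic genes are neighbours. CG11889, CG11891, CG10513, CG10553, CG10560 and CG10562 all lie on chromosome 3R between 25270209 and 25322757, a grouping seen after their values were known. Their peaks were not alike: CG10513 peaked at CT24.0 in females and CT23.4 in males, CG10553 at CT21.5 in females and CT21.9 in males, and CG10560 at CT2.89 in females and CT2.36 in males. Their phase differences other than that of CG11891 ran from -0.71 to 1.45 h and none passed.

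The core clock genes showed no called sex difference of rhythm under RNAi. Of 17 genes in the 5 clock lists 5 were rhythmic in both sexes, namely per, tim, Clk, vri and Pdp1, and 0 passed the test of the difference, with 1 (slmb) at an unadjusted p under 0.05. These tests leave room for shifts of 1 h or more.

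Among the repressors, per ranged from 3.62 to 13.86 TPM in females (median 7.84) and from 3.45 to 16.02 TPM in males (median 7.005). Its ratio was 1.89 in females and 2.04 in males, and its peak CT13.0 in females and CT11.9 in males (1.1 h, 95% interval -0.93 to 3.12). The tim mRNA ranged from 140.23 to 297.73 TPM in females (median 220.66) and from 103.51 to 281.35 TPM in males (median 206.21). Its fitted ratio was 1.55 in females and 2.02 in males, a log2 difference of -0.39 (95% interval -0.74 to -0.03, adjusted p 0.337 over the 50 genes). Its peaks were CT14.4 in females and CT15.1 in males, and at CT26 and CT28 it had 167.09 and 140.23 TPM in females, against 103.51 and 109.05 TPM in males. The repressor cwo had ratios of 1.06 in females and 1.35 in males and was not called rhythmic in either.

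Among the activators and the second loop, Clk ranged from 12.97 to 32.57 TPM in females (median 24.895) and from 19.17 to 40.92 TPM in males (median 28.36), peaking at CT23.8 in females and CT22.7 in males (1.07 h, 95% interval -0.38 to 2.51). The vri mRNA had the best resolved phase, with peaks at CT12.8 in females and CT12.3 in males (0.51 h, 95% interval -0.69 to 1.71) and ratios of 2.28 in females and 2.45 in males. It ranged from 22.21 to 69.85 TPM in females (median 45.985) and from 18.85 to 77.04 TPM in males (median 47.365). Pdp1 peaked at CT13.9 in females and CT12.3 in males (1.57 h, 95% interval -0.92 to 4.07). Its range was 98.71 to 286.6 TPM in females (median 152.65) and 145.99 to 304.75 TPM in males (median 190.345). The partner cyc, which is not known to cycle, had ratios of 1.18 in females and 1.12 in males. The light input genes cry and jet, the kinase and turnover genes dco (doubletime), sgg, CkIIalpha, CkIIbeta, nmo and slmb, and the neuropeptide Pdf with its receptor Pdfr were called rhythmic in neither sex.

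**Figure D4:**
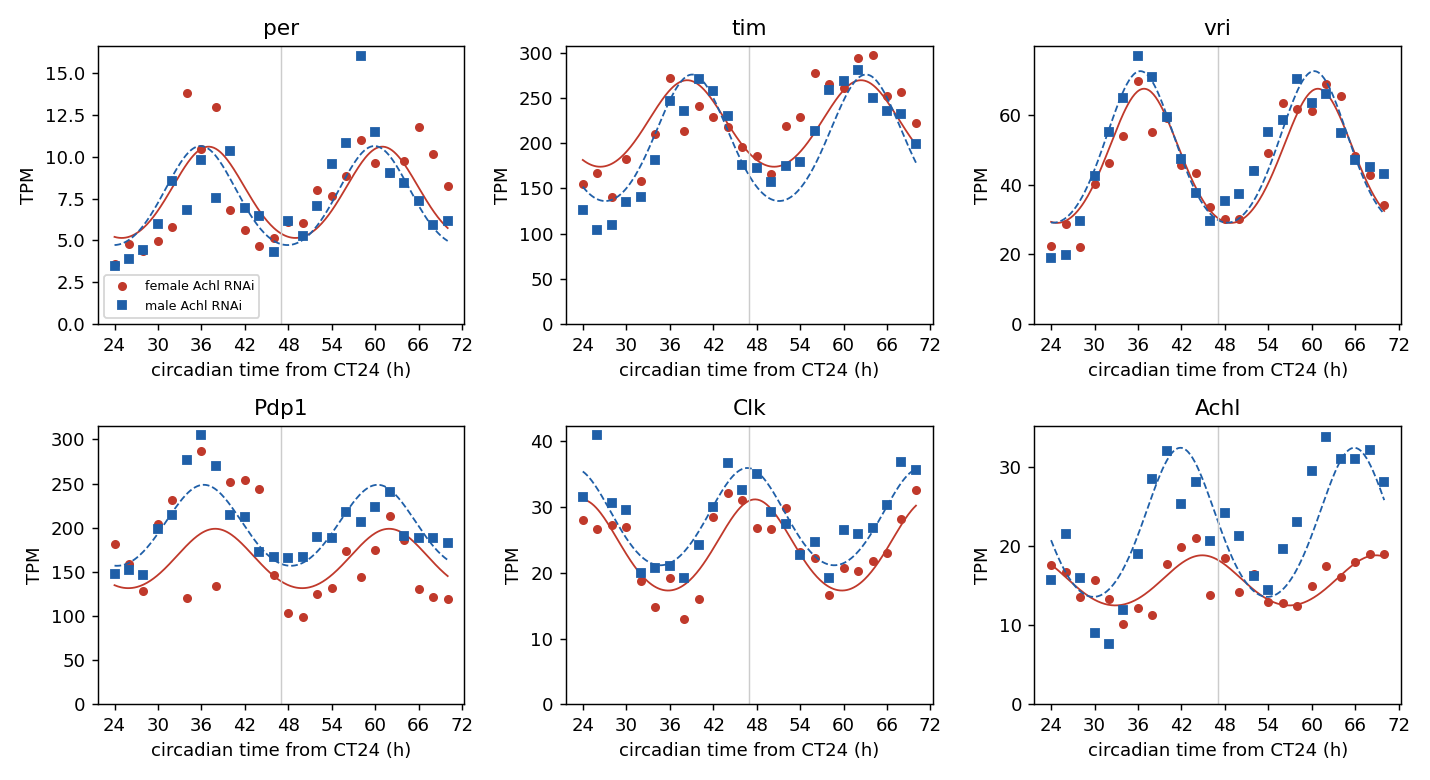
TPM of 5 clock genes and Achl by circadian time in female and male Achl RNAi heads, with 1 point per library and fitted 24 h curves; the grey line parts the days. The peaks of the 5 clock genes lie -0.69 h (tim) to 1.57 h (Pdp1) apart, female minus male, and Achl has a ratio of 1.47 in females and 2.29 in males.

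The Achl rhythm that remained under its own RNAi had a ratio of 1.47 and a peak at CT20.9 in females, and a ratio of 2.29 and a peak at CT17.9 in males. It was called in males (adjusted p 2.0e-04) and not in females (adjusted p 0.369), and the difference did not pass (unadjusted p 0.0099, adjusted p 0.716). In controls the ratios were 2.20 in females and 3.78 in males.

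Clock-controlled head outputs were described from a list of 20 genes. Of these 9 were rhythmic in each sex and 8 in both, 5 had an unadjusted p under 0.05 for the difference and 0 passed, beside 4.83% of all genes at that unadjusted level. Cyp4d21, a cytochrome P450 gene known for its high level in male fat body, had 12.7 to 193.44 TPM in females (median 59.315), all below the 321.8 to 843.73 TPM in males (median 555.38). Its ratio was 3.23 in females and 1.78 in males (adjusted p 0.373), but 5.08 in females and 1.51 in males on the first day, and 2.10 in females and 2.11 in males on the second. The takeout gene, to, which links feeding to the clock, had 1.70 in females and 2.29 in males, with peaks at CT23.5 in females and CT0.74 in males. Across all 31 gene lists examined 0 members passed the test of the difference over both days. The Toll list had 7 of 27 tested members at an unadjusted p under 0.05, the fat body list 4 of 13, nuclear OXPHOS 6 of 68, ribosomal proteins 1 of 86 and the proteasome 0 of 31.

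Some enzymes of tyrosine breakdown had larger fitted ratios in females, a group picked after its values were seen. CG11796, the likely 4-hydroxyphenylpyruvate dioxygenase gene, had ratios of 2.59 in females and 1.89 in males. GstZ2, of the maleylacetoacetate isomerase family, had 2.45 in females and 1.67 in males, and hgo, the homogentisate dioxygenase gene, had 1.97 in females and 1.36 in males. All of these peaked between CT1.47 and CT3.69. Their differences did not pass (adjusted p by limma 0.986, 0.986 and 0.921). Of the same route, Faa, for fumarylacetoacetase, had 1.36 in females and 1.01 in males (adjusted p by limma 0.795). Hn, for phenylalanine hydroxylase, had 1.23 in females and 1.303 in males (adjusted p by limma 0.986). GstZ1, of the same family as GstZ2, did not follow it. On the second day GstZ1 had 24.24 to 34.42 TPM in females, highest at CT56, and 24.57 to 36.41 TPM in males, highest at CT68. GstZ2 was highest that day at CT50 in females and CT48 in males.

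Fitting each day alone gave other counts than the fit over both days, and the reason was not tested. In female RNAi heads 135 genes had a called daily course on the first day (1.28%) and 3053 on the second (28.9%). In male RNAi heads the order was opposite, with 2464 on the first day (23.3%) and 74 on the second (0.700%). Control heads had 84 in females (0.795%) and 77 in males (0.729%) on the first day, and 102 in females (0.965%) and 125 in males (1.18%) on the second. Of the 3053 female genes 2264 had their fitted peak from CT18 to CT24, and so did 2293 of the 2464 male genes, on the other day. A fit to 1 day of 12 libraries cannot tell a daily rhythm from a change that happened once.

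The test of the sex difference called 17 genes on the first day (0.161%) and 1781 on the second (16.9%), against 1 gene on either day in controls (0.00946%). At an unadjusted p under 0.05 the days were closer, with 2900 genes (27.4%) on the first and 3599 (34.1%) on the second. In controls 409 genes on the first day and 1102 on the second reached that unadjusted level. With library median centring the first-day calls numbered 913 and the second-day calls 1527. On the second day 1610 of the 1781 had the higher ratio in females, with medians of 1.56 in females and 1.24 in males, and 1429 peaked from CT18 to CT24 in females. Genes called on both days numbered 2, gol and Hel25E, and Hel25E, which encodes an RNA helicase of splicing and export, had its higher ratio in males on the first day and in females on the second. In the direct test 3598 genes (34%) had a sex difference on the second day that differed from that on the first, gol not among them (adjusted p 0.107). In controls 0 genes did by limma, with 805 at an unadjusted p under 0.05. The sex differences on the 2 days pointed within 6 h of each other for 183 of the 1781 genes (10.3%), against 27.0% of all genes.

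When the same day-to-day change was set against that in controls, 0 genes passed (692 at an unadjusted p under 0.05), and 0 passed on the first or the second day alone (662 and 596 unadjusted). The day counts also leaned on single libraries. The first-day count of 17 became 3140 without the female CT32 library and 1 without the male CT34 library. The second-day count of 1781 became 804 without the male CT58 library, and the first-day male count of 2464 became 181 without the male CT44 library. With the control libraries left out of the fit the second-day count was 843 and the first-day count 1.

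Lists of protein synthesis, respiration and protein breakdown had high shares of second-day calls, beside 16.9% of all tested genes. Together they gave 139 of the 1781 calls (7.80%). All of these genes were measured in the same 12 libraries per group that day. Their calls are therefore not independent, and the counts below are descriptions only. Of the 86 tested genes for cytosolic ribosomal proteins 69 (80.2%) were called on the second day, all with the higher ratio in females and 68 with a female peak from CT18 to CT24. So were 52 of 68 nuclear OXPHOS genes (76.5%) and 18 of 31 proteasome genes (58.1%), all higher in females and peaking in that window. The median ratio of the ribosomal protein genes was 2.01 in females and 1.35 in males on the second day, and 1.45 in females and 2.03 in males on the first. On the first day 0 of them had a called course in females and 51 in males, and on the second 75 did in females and 0 in males.

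The summed ribosomal protein level adds up the genes of this list in the same libraries, so it describes their course and is no separate support. The window at the end of each day lies where the called female peaks lay, and each window median rests on few libraries. On the second day the sum had a median of 199893 TPM in female RNAi heads at CT66 to CT70, beside 132060 TPM at the other times. Its extremes were 104097 TPM at CT62 and 203311 TPM at CT66. In male RNAi heads that day it was 59407 TPM at CT66 to CT70 and 58601 TPM at the other times. On the first day the females had 127461 TPM at CT42 to CT46 and 119190 TPM otherwise, with single libraries from 85353 TPM at CT32 to 180552 TPM at CT34. The males had 58729 TPM at CT42 to CT46 and 44316 TPM otherwise that day. The female and male RNAi groups did not overlap at any time, female sums being the higher. On the first day male controls had a rise as well, with 83924 TPM at CT42 to CT46 and 67033 TPM otherwise. Female controls had 143283 and 125788 TPM. On the second day female controls had 182079 TPM at CT66 to CT70 and 184697 TPM otherwise, and male controls 62958 and 72227 TPM.

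By window medians mt:lrRNA moved against these sums, except in female controls on the first day. In female RNAi heads mt:lrRNA on the second day had a median of 12479 TPM at CT66 to CT70 and 16899 TPM at the other times. Single libraries overlapped there, with 17550 TPM at CT70 and 13041 TPM at CT52. In male RNAi heads on the first day it had 109154 TPM at CT42 to CT46 and 146725 TPM at the other times. Male controls that day also had less in this window, with 69573 TPM against 123972 TPM. Female controls had 94446 TPM against 91266 TPM on the first day, and 21633 TPM at CT66 to CT70 against 15742 TPM on the second. Male controls had 131860 TPM against 107070 TPM on the second day. After the values were rescaled without mitochondrially encoded genes, a setting added after the data were seen, 69 of 86 ribosomal protein genes were called on the second day, with median ratios of 1.98 in females and 1.26 in males. The same setting called 54 of 68 nuclear OXPHOS genes and 18 of 31 proteasome genes. The first day did not stay the same under such rescaling. With the mitochondrially encoded genes also left out of the fit, 473 genes were called on the first day, against 17 before. On the second day 1761 were called, against 1781 before.

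**Figure D5:**
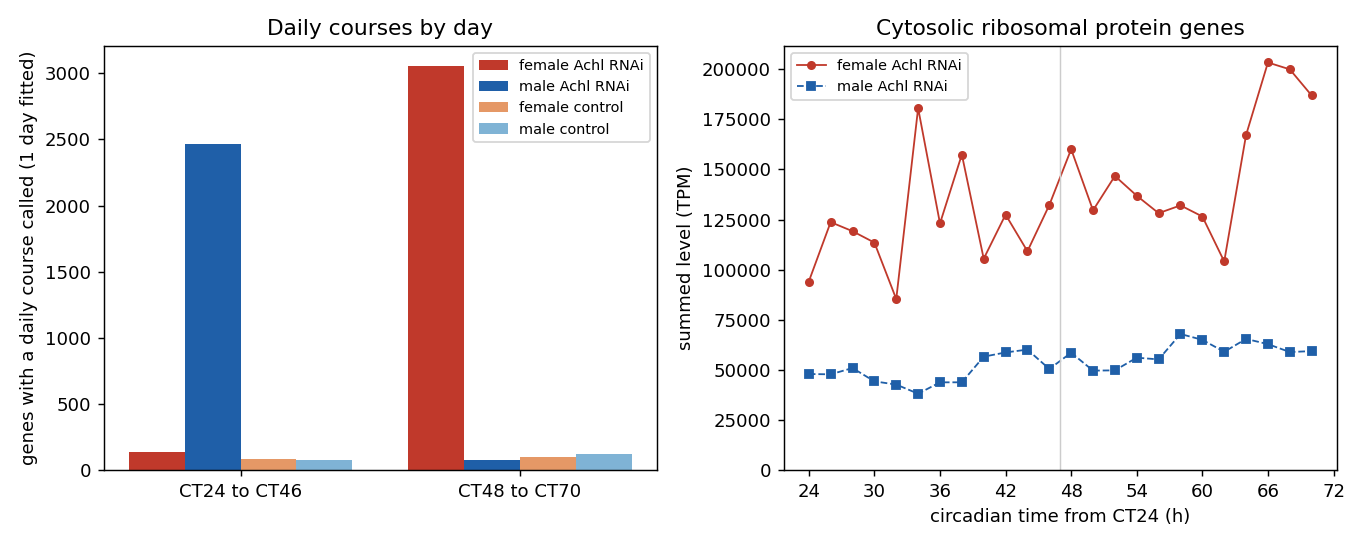
Left, number of genes with a called daily course when each day was fitted alone, by group. Right, summed TPM of the cytosolic ribosomal protein genes by circadian time, with 1 point per library of female and male Achl RNAi heads; the grey line parts the days. Female sums reach 203311 TPM at CT66.

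A few of the 12 genes of lowest p on the second day with a mean of at least 5 TPM are given as examples. Tpi, the triose phosphate isomerase of glycolysis, had 59.3 to 115.47 TPM in females (median 72.22) and 50.32 to 79.7 TPM in males (median 64.64) that day. Its ratio was 1.79 with a peak at 21.03 h in females, and 1.35 with a peak at 14.2 h in males (adjusted p 0.00192). Taldo, the transaldolase of the pentose phosphate route, had ratios of 2.47 in females and 1.43 in males, and on the first day 1.45 in females and 1.53 in males. Oat, ornithine aminotransferase, had 2.77 in females and 1.67 in males on the second day, and 1.44 in females and 2.34 in males on the first. CG15068 had another order, with its second-day peak at 8.12 h in females and 18.2 h in males.

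Of the 17 clock genes 7 (41.2%) were called on the second day, beside 16.9% of all tested genes, and 0 on the first. They were per, cyc, Pdp1, cry, CkIIalpha, Pdf and Pdfr. On the second day alone per was called, with a ratio of 1.49 and a peak at 14.4 h in females and 2.09 and 10.6 h in males (adjusted p 0.0113), whereas on the first day it had peaks at 12.4 h in females and 13.1 h in males (adjusted p 0.728). Pdp1 had ratios of 1.79 in females and 1.302 in males on the second day (adjusted p 0.0458), and 1.38 in females and 1.92 in males on the first. The cry mRNA, for the blue-light receptor that resets the clock, had 1.73 in females and 1.18 in males on the second day (adjusted p 0.013), against 1.34 in females and 2.14 in males on the first. The activator cyc had 1.39 in females and 1.18 in males on the second day (adjusted p 0.0196), and CkIIalpha, the catalytic subunit of a kinase that acts on PER and TIM, had 1.61 in females and 1.07 in males (adjusted p 0.017). Pdf, the neuropeptide of the clock neurons, had 1.31 with a peak at 21.6 h in females and 1.32 at 15.5 h in males (adjusted p 0.0244), and its receptor gene Pdfr had 1.296 in females and 1.04 in males (adjusted p 0.0228). The second-day sex differences of Clk, vri and tim did not pass (adjusted p 0.11, 0.276 and 0.58).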

How the data were processed

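Stranded mRNA libraries of fly heads were processed by the authors with STAR and RSEM, and the submitters' processing notes name the build dm6 but no tool version. The authors deposited TPM, a unit with the same sum in every library, so depth is unknown and no counting interval can be given. Of 17698 deposited genes, those 10568 reaching 1 TPM in 24 or more libraries were kept and log2(TPM + 1) taken, so that changes of low genes are understated. A single fit of the 96 libraries in limma 3.58.1 (R 4.3.3, trend and robust options) gave each group a level and a 24 h cosine and sine. Tests were moderated F tests, adjusted by Benjamini-Hochberg with a threshold of 0.05. Peak times and ratios have delta-method standard errors, and their sex differences were tested among genes rhythmic in both groups. The script was tested on simulated data.

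Each day was also fitted alone, and the days were compared in a fit with separate coefficients per day, a test added after the data were seen. The members and lists were chosen with earlier results of these data known. Genes named are Achl, the clock lists, the 15 lowest p in the sex difference with a mean of at least 5 TPM, the 6 lowest p for phase and 4 for ratio, the 6 lowest p against controls, list leaders, genes beside the threshold and, chosen afterwards, second-day leaders and others said to be so. Positions come from Ensembl annotation of BDGP6 (dm6). Of the tested genes 116 had values identical to another. Alternatives were other pseudocounts, filters, scalings, covariates, periods, days and subsets of libraries. Figures used Python 3.11.15 and matplotlib 3.10.9.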

Additional observations from a re-analysis of the deposited data

Results flagged for a closer look

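The rhythm of gol differed between female and male Achl RNAi heads by the test of the difference itself, with a log2 peak-to-trough ratio lower in females by 0.631 (difference -0.631, adjusted p 0.00189 for the whole rhythm). The phase of the same gene differed by 2.72 h. For phase alone the test of the difference also passed for CG11891 (2.35 h), CG14329 (3.63 h) and Jhe (-2 h), all as female minus male. In the direct test the sex difference on the second day differed from that on the first in 3598 genes. Against the same change in controls 0 genes passed (692 at an unadjusted p under 0.05 by limma). The count of 3598 ran from 2046 to 4819 when single RNAi libraries were left out.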

How the results depend on the processing

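The count of 1 gene with a sex difference of rhythm under RNAi stayed at 1 in 6 of 15 alternatives. It was 2 with library median centring, 11 without mitochondrially encoded genes, 5 with a day term, 14 with mt:lrRNA as a covariate, 17 on the first day, 1781 on the second, 2 at 23 h and 0 at 25 h. With collection time as a replicate block it was 12. The labels give no pairing, so the block was not used elsewhere. Same-time female and male residuals correlated at -0.428 to 0.521 over the 24 pairs (median 0.024), with 10 pairs over 0.1. Rhythmic female genes numbered 230 without mitochondrially encoded genes, 90 with the RNAi libraries only, 265 with a day term, 660 with the covariate and 3053 on the second day. Male ones numbered 69 with the RNAi libraries only, 412 with a day term and 2464 on the first day, and jointly rhythmic ones 85 with a day term. Phase calls were 11 with centring, 12 without mitochondrially encoded genes, 7 with the RNAi libraries only, 14 with a day term, 18 with the covariate, 13 and 20 on the first and second day, 10 at 23 h and 1 at 25 h. Ratio calls were 2 with centring, 0 with the covariate, 3 on the first day, 0 on the second and 0 at 25 h. The control difference counted 3 at a pseudocount of 5 TPM, 0 without a filter, with centring and without mitochondrially encoded genes, 2 without the trend and robust options, 4 with a day term, 5 with the covariate and 2 at 23 h. The difference from controls stayed at 0 in all 14 settings run, with 383 at an unadjusted p under 0.05 in the reported fit. First-day calls were 913 with centring, 473 without mitochondrially encoded genes and 1 with the RNAi libraries only. Second-day calls were 843 and first-day male rhythms 446 with the RNAi libraries only. The causes were not tested.

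Leaving out single RNAi libraries gave 1 to 3 calls, 2 to 8 phase calls and 1 to 2 ratio calls. Called rhythms ran from 108 to 178 in females, 84 to 148 in males and 41 to 54 in both, and later female peaks from 32 to 36. First-day calls ran from 1 to 3140, second-day calls from 804 to 2600, first-day male rhythms from 181 to 2989, second-day female rhythms from 1871 to 3723 and the difference between days from 2046 to 4819. First-day calls moved over 1.5 times without the female CT26, CT30, CT32, CT34, CT36, CT38, CT42 or CT44 or the male CT24, CT32, CT34, CT36, CT42 or CT44 library. Second-day calls did so without the female CT60 or CT68 or the male CT58, CT60 or CT68 library, first-day male rhythms without the male CT32, CT34, CT42 or CT44 library, second-day female rhythms without the female CT68 library, and the difference between days without the female CT34 library. Over both days 2 or 3 genes were called without the female CT24, CT26, CT34, CT36 or CT56 or the male CT24 or CT62 library. The ratio calls were 2 without the female CT38 library. Phase calls were 7 or 8 without the female CT38 or the male CT26, CT28, CT54 or CT58 library, and 2 without the female CT24, CT44, CT56 or CT62 or the male CT30, CT44, CT66, CT68 or CT70 library.

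The adjusted p of gol ran from 3.4e-08 to 0.181 over the alternatives. Its ratio difference lost the call with the covariate, on the second day and at 25 h. The phase call was lost in 5 of 14 settings for Jhe, 4 for CG14329 and 2 for CG11891, and in 0 for gol.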
